A study of Mus musculus with 2 samples.

Results

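The genes described here are 10 mouse genes of innate pattern recognition: the Toll-like receptor (TLR) genes Tlr2, Tlr3 and Tlr4, the lipopolysaccharide co-receptor gene Cd14, the RIG-I-like receptor (RLR) genes Ifih1 and Dhx58, the NOD receptor genes Nod1 and Nod2, and the adaptor genes Myd88 and Mavs. They were taken by gene name, and all 10 were found once each among the 44291 genes of the expression tables. The tables come from RNA-seq of primary FAPs (fibro-adipogenic progenitors, stromal cells of muscle that give rise to adipocytes), of the wild-type mouse. One culture was treated with platelet-rich plasma (PRP) and the other with vehicle (control), and both were put under adipogenic induction, in DMEM with insulin (10 μg/ml), dexamethasone (0.25 μM), IBMX (0.5 mM) and FBS (20%). There was 1 library per group, so the differences given have no replicate check and compare 2 libraries, not 2 treatments. The labels call the treatment PRP, while the study's text describes FAPs given exosomes from human PRP, and the labels state neither the time in induction medium nor the age of the mice. The libraries are named by their labels here.

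Pattern recognition receptors detect molecules of microbes and of damaged cells. TLR2 and TLR4 sit at the cell surface and bind bacterial lipopeptides and, with CD14 and MD-2, lipopolysaccharide, whereas TLR3 binds double-stranded RNA in endosomes. MDA5 (encoded by Ifih1) and LGP2 (encoded by Dhx58) bind double-stranded RNA in the cytosol, and MDA5 signals through MAVS on mitochondria. LGP2 lacks the domains that contact MAVS and modulates the other receptors of its family. NOD1 and NOD2 detect fragments of peptidoglycan in the cytosol, and MyD88 is the adaptor of most TLRs and of the interleukin-1 receptor family. Stromal cells carry several of these receptors, and a number of the genes are themselves inducible by interferon or by NF-κB.

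Because interferon and NF-κB are known regulators of such genes, the promoter windows of the members were read for their binding motifs. RefSeq windows (GRCm38.p6) of 300 bases, 250 before and 50 after a transcription start, were matched for 7 of the 10 genes, with 2 windows for Nod1 and 1 for each of Ifih1, Mavs, Tlr2, Tlr3, Nod2 and Myd88. Dhx58, Tlr4 and Cd14 were not matched. Both strands were searched for the core of the interferon-stimulated response element (GAAANNGAAA), the GAS core (TTCNNNGAA) and the κB consensus. These occurred in 3.44%, 8.30% and 4.51% of all 32851 windows. At least 1 match was found in 5 of the 7 genes, and none in the windows of Mavs and Nod2. The share of all windows with a match to any of these motifs was not computed, so this count has no comparison. The following stretches of 30 bases, each 5′ to 3′ on the strand of its gene with the matched bases in capitals, show a match for each of 4 genes, of which Myd88 and Ifih1 carry the interferon-response core and Tlr2 and Tlr3 the κB consensus.
Myd88 (chr9:119340044-119340073, minus strand, GAS core overlapping an interferon-response core): gggcggagcTTCTCGGAAAGCGAAAgaagg
Ifih1 (chr2:62646206-62646235, minus strand, interferon-response core): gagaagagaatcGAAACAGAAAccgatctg
Tlr2 (chr3:83841761-83841790, minus strand, overlapping κB matches): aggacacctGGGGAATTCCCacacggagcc
Tlr3 (chr8:45410572-45410601, minus strand, κB match): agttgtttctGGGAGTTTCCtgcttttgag
The Myd88 matches began 46 bases (GAS) and 40 bases (interferon-response) before the start used for its window. This start is not the outermost one annotated, as the stretch lies inside the annotated Myd88 gene (119335934 to 119341411), with 0 bases in its exons. The Ifih1 match lay 33 to 42 bases after the start, in the first exon. All 30 bases of the Tlr3 stretch lie before the transcription start used for its window but inside annotated Tlr3 exons. Of the Tlr2 stretch, 7 bases lie inside annotated Tlr2 exons. Tlr2 had a further κB match across the start itself, and 1 of the Nod1 windows had a GAS core 193 bases before its transcription start. A match describes the letters of the window, and binding was not measured.

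The totals of reads assigned to genes, worked out from the FPKM values, were 40120843 (PRP) and 34139741 (control). In all, 13401 genes had a mean FPKM (a level scaled to exon length and to the assigned total) of at least 1 and were tested for size of change, and their median log2 fold change was 0.0065. Mitochondrial genes made up 2.06% of the summed FPKM with PRP and 3.70% in the control. The FAP label was checked against 14 markers, of which 11 were tested. Of these 11, 10 were lower in the PRP library, whereas 50.9% of all tested genes were higher there. Among the 10 were the receptor gene Pdgfra with 19.8 FPKM (PRP) and 28.0 FPKM (control) and the most abundant marker, Col1a1, with 118.6 and 218.7 FPKM. The matrix gene Lum and the FAP subset gene Pi16 were nearly absent, at no more than 0.0815 FPKM in either library. In bulk RNA, fewer cells of a type and less RNA per cell cannot be told apart, here and for the genes below.

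None of the 7 receptor and adaptor genes that were tested differed 2-fold between the libraries on the log2(FPKM + 1) scale, and the largest difference among them was that of Dhx58. With a mean FPKM of at least 1, 7 of the 10 genes were tested, whereas Tlr3, Cd14 and Nod2 fell under this filter. The log2 fold change was taken as log2(FPKM + 1) in the PRP library minus the same in the control library, which understates the change of low genes. It was above 0 for 5 of the 7 genes (Dhx58, Ifih1, Tlr2, Myd88 and Tlr4) and below 0 for 2 (Mavs and Nod1), against 50.9% of all tested genes above 0. The median over the 7 genes was 0.24. It rests on the low filter, since at a mean FPKM of at least 5 only Myd88 and Mavs were left and the median was -0.028. Over all tested genes, 2.00% were at least 2-fold higher in the PRP library and 0.828% at least 2-fold lower.

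**Figure D1:**
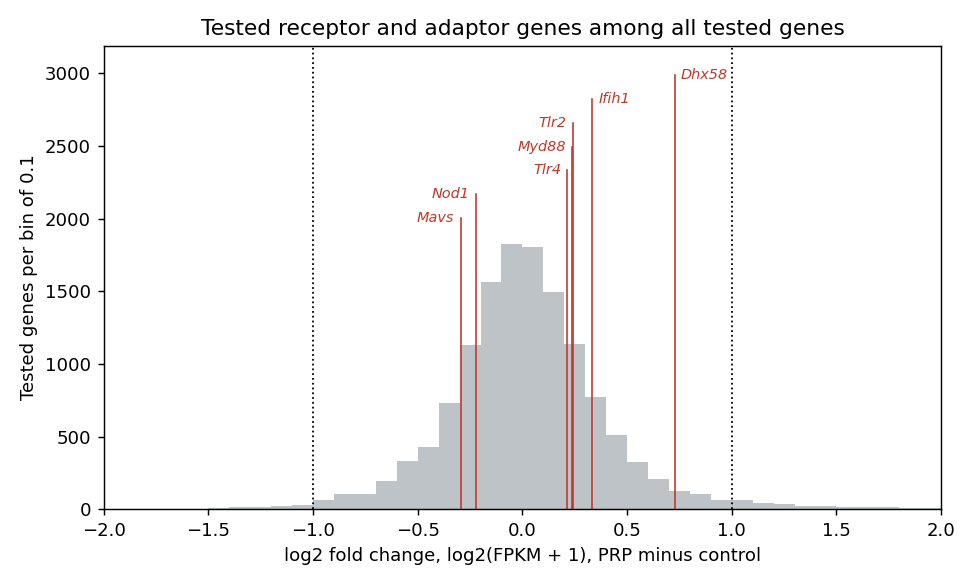
Distribution of the log2 fold change, on the log2(FPKM + 1) scale, over the 13401 tested genes in bins of 0.1 (grey bars), with a red line for each of the 7 tested receptor and adaptor genes. Dotted lines mark 2-fold, and genes beyond -2 or 2 are outside the drawn axis. All 7 lie inside the dotted lines, and Dhx58 at 0.73 stands farthest from 0.

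The FPKM values came out as whole reads for all 10 genes, which gave the counting error of each ratio. Intervals are exact Clopper-Pearson 95% binomial intervals on reads divided by 2, since the mates of a pair appear to have been counted separately. They cover counting error only and compare the libraries, not the treatments. The interval of the PRP to control ratio lay wholly above 1 for 5 of the 10 genes (Dhx58, Ifih1, Tlr4, Myd88 and Nod2), wholly below 1 for 2 (Mavs and Nod1), and included 1 for 3 (Tlr2, Tlr3 and Cd14). Among the 7 tested genes these numbers were 4, 2 and 1. At this depth 26.1% of the 12369 tested genes with whole reads had an interval wholly above 1 and 26.1% had one wholly below 1, so that an interval that leaves out 1 is common in these libraries.

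**Figure D2:**
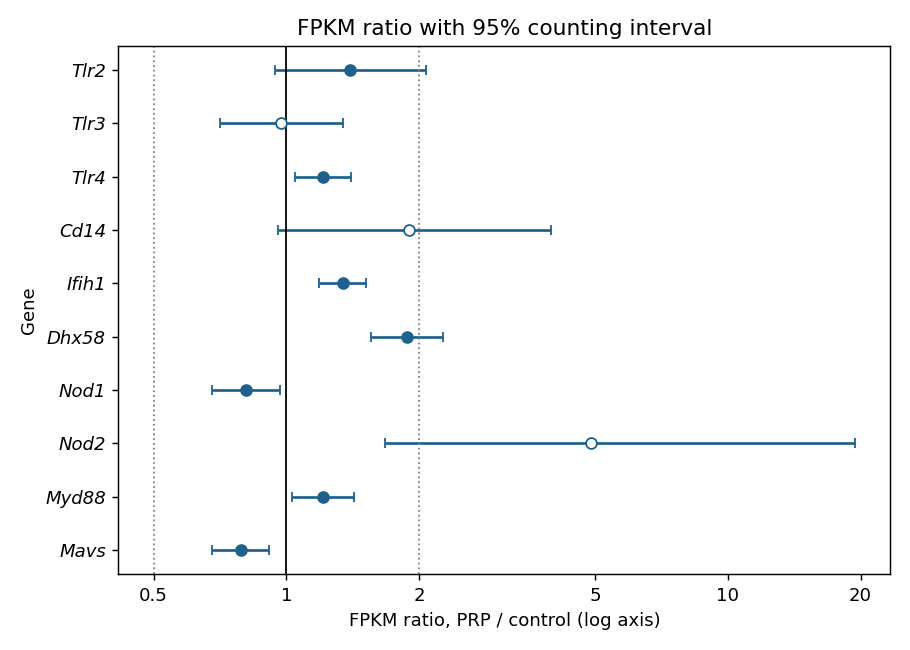
Ratio of FPKM in the PRP library to FPKM in the control library (log axis) for each gene, with its 95% counting interval. Filled points had a mean FPKM of at least 1 and open points did not, the solid line marks a ratio of 1 and dotted lines mark 2-fold. Dhx58 reached 1.88, and the open point of Nod2 reached 4.89 with the widest interval.

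Among the RNA-sensing receptors of the cytosol, Dhx58 differed more than Ifih1. Dhx58 (ENSMUSG00000017830, chromosome 11, 100694884 to 100704271, minus strand) had 5.59 FPKM (734 reads) with PRP and 2.98 FPKM (333 reads) in the control. This is a ratio of 1.88 (95% interval 1.56 to 2.27) and a log2 fold change of 0.73, and 3.87% of all tested genes had a higher one. Dhx58 was the 1 gene of the 7 that passed a 1.5-fold threshold upwards, as did 6.15% of all tested genes. An antisense gene, Dhx58os, covers 4.31% of its exon bases, and although the library kit was stranded, the strand setting of the counting is not given in the sources used here.

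Ifih1 (ENSMUSG00000026896, chromosome 2, 62595798 to 62646255, minus strand) had 4.26 FPKM (1397 reads) with PRP and 3.18 FPKM (887 reads) in the control. Its ratio was 1.34 (1.19 to 1.51), and the interval does not overlap that of Dhx58. In the control library the level of LGP2 mRNA per length was 0.937 times that of MDA5 mRNA (interval 0.779 to 1.12), and in the PRP library it was 1.31 times as high (1.15 to 1.49). Rigi, which encodes RIG-I, the founding receptor of the family, was looked at after its values were seen. It had the highest level of the family in both libraries, with 10.02 FPKM (PRP) and 7.45 FPKM (control), and its ratio of 1.34 (1.24 to 1.46) was close to that of Ifih1. The Ifih1 level was 0.426 times that of Rigi in the PRP library and 0.427 times in the control library, while Dhx58 went from 0.400 times Rigi in the control library to 0.558 times in the PRP library.

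The adaptor through which MDA5 and RIG-I signal stood on the other side. Mavs (ENSMUSG00000037523, chromosome 2, 131234063 to 131248025, plus strand) had 5.27 FPKM (707 reads) with PRP and 6.69 FPKM (764 reads) in the control. The ratio was 0.787 (0.679 to 0.912) and the log2 fold change -0.29, with 15.7% of the tested genes lower still. Mavs was accordingly 2.10 times the level of Ifih1 in the control library (1.83 to 2.42) and 1.24 times in the PRP library (1.08 to 1.41).

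The FPKM ratios of Tlr2, Tlr3 and Tlr4 were all inside 2-fold, although the interval of Tlr2 reached past it. Tlr4 (ENSMUSG00000039005, chromosome 4, 66827584 to 66930284, plus strand) was the most abundant, with 4.08 FPKM (910 reads) with PRP and 3.38 FPKM (641 reads) in the control. Its ratio was 1.21 (1.04 to 1.40). Tlr2 (ENSMUSG00000027995, chromosome 3, 83836272 to 83841767, minus strand) had 1.19 FPKM (144 reads) with PRP and 0.855 FPKM (88 reads) in the control. Its ratio of 1.39 was higher than that of Tlr4, but with fewer reads its interval of 0.944 to 2.07 included 1, so no difference was detectable at this depth.

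Tlr3 (ENSMUSG00000031639, chromosome 8, 45395665 to 45411080, minus strand) was nearly even between the libraries, with 0.833 FPKM (174 reads, PRP) and 0.855 FPKM (152 reads, control). The interval of its ratio of 0.974 ran from 0.708 to 1.34, and 7.32% of its exon bases are shared with a gene on the opposite strand. The sum of the 3 receptors was 6.11 FPKM with PRP and 5.09 FPKM in the control. Tlr4 mRNA stood at 3.43 times the Tlr2 level in the PRP library (2.67 to 4.46) and at 3.95 times in the control library (2.88 to 5.55), intervals that overlap.

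Cd14 (ENSMUSG00000051439, chromosome 18, 36725067 to 36726798, minus strand), whose product hands lipopolysaccharide to the TLR4 complex, was low. It had 0.835 FPKM (58 reads) with PRP and 0.440 FPKM (26 reads) in the control. The ratio of 1.90 was as large as that of Dhx58, but it rests on few reads and its interval of 0.956 to 3.98 included 1. Ly96, which encodes MD-2, the partner that TLR4 needs to bind lipopolysaccharide, was also looked at after its values were seen, and had 3.61 FPKM (PRP) and 2.87 FPKM (control), with a ratio of 1.26 (0.868 to 1.84). Its level was near that of Tlr4 in both libraries, Tlr4 being 1.13 times the Ly96 level in the PRP library and 1.18 times in the control library.

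The adaptor gene Myd88 (ENSMUSG00000032508, chromosome 9, 119335934 to 119341411, minus strand) was the most abundant of the 10 genes in the PRP library. It had 7.09 FPKM (733 reads) there and 5.86 FPKM (515 reads) in the control library, a ratio of 1.21 (1.03 to 1.43). This ratio was almost the same as that of Tlr4. Of its exon bases, 11.3% are shared with Acaa1a on the opposite strand. The stretch printed above for Myd88 holds 2 of the 3 motifs searched for, and that of Ifih1 holds 1. Windows of Tlr2, Tlr3 and Nod1 held matches too. Whether the motifs bear on the levels was not tested.

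The NOD receptors lay far apart in level and differed in opposite directions. Nod1 (ENSMUSG00000038058, chromosome 6, 54923949 to 54972612, minus strand) had 2.42 FPKM (494 reads) with PRP and 2.999 FPKM (520 reads) in the control, a ratio of 0.808 (0.676 to 0.966). Nod2 (ENSMUSG00000055994, chromosome 8, 88647315 to 88688474, plus strand) was nearly absent from the control library, with 0.0467 FPKM from 8 reads, and had 0.229 FPKM from 46 reads in the PRP library.

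The Nod2 ratio of 4.89 (1.67 to 19.5) was the largest of the 10 genes, but at this level the log2(FPKM + 1) difference was 0.23, and the gene was not among those tested. Taken as plain FPKM ratios over the 23815 genes above 0 in both libraries, 9.62% were at least 2-fold higher in the PRP library, and Nod2 was the 1 gene of the 10 that was. Nod1 remained the more abundant receptor, at 10.6 times the Nod2 level in the PRP library (6.91 to 17.0) and 64.2 times in the control library (24.8 to 237.3).

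**Figure D3:**
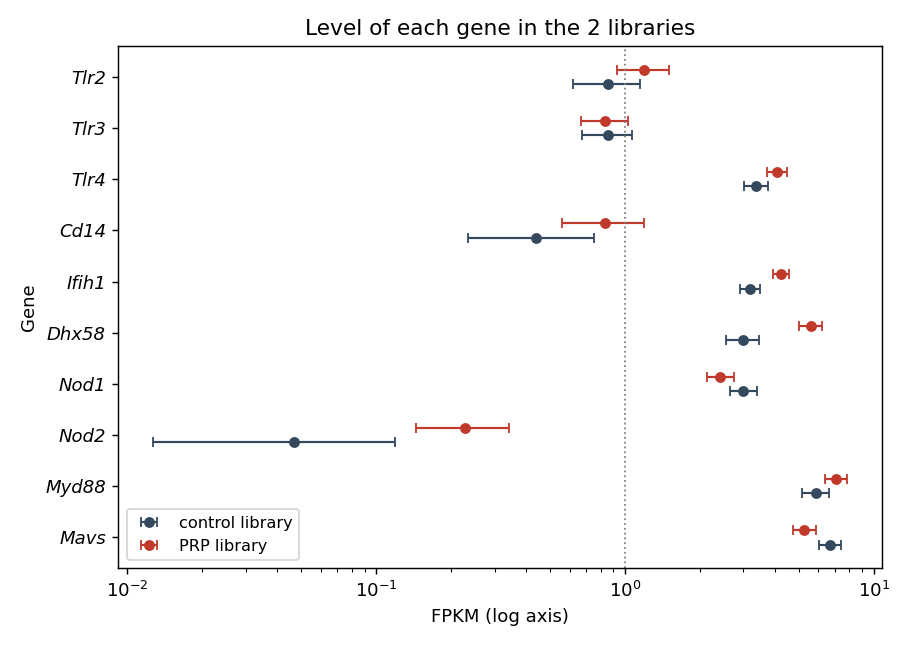
FPKM (log axis) of each gene in the control library (dark) and in the PRP library (red), with exact 95% Poisson intervals of the counting error. The dotted line marks 1 FPKM. Myd88, Mavs, Dhx58, Ifih1, Tlr4 and Nod1 lie above 2 FPKM in both libraries, Tlr2, Tlr3 and Cd14 near or under 1 FPKM, and Nod2 lowest.

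The order of the levels, per length, differed between the libraries mainly through Dhx58. In the control library the order was Mavs, Myd88, Tlr4, Ifih1, Nod1, Dhx58, Tlr2, Tlr3, Cd14 and Nod2. Neighbours in this order that did not differ beyond counting error were Mavs and Myd88, Tlr4 and Ifih1, Ifih1 and Nod1, Nod1 and Dhx58, and Tlr2 and Tlr3. In the PRP library the order was Myd88, Dhx58, Mavs, Ifih1, Tlr4, Nod1, Tlr2, Cd14, Tlr3 and Nod2. There Dhx58 and Mavs, Ifih1 and Tlr4, Tlr2 and Cd14, and Cd14 and Tlr3 did not differ beyond counting error. Dhx58 was thus in rank 6 of the control library and in rank 2 of the PRP library, whereas Nod2 was last in both. Summed over the 10 genes, the level was 31.8 FPKM with PRP and 27.3 FPKM in the control.

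The lists that follow, like the 10 genes, were chosen with earlier results of these data known. Their counts beside the shares of all tested genes are therefore description and not a test. Around the 10 genes, 167 other genes of pattern recognition in 9 lists were read in the same way. Of these, 110 were tested, 69 of them higher and 41 lower, against 50.9% of all tested genes higher, and their median log2 fold change was 0.12. At least 2-fold higher were 8 genes (Zbp1, Ptx3, Irf7, Il1rl1, Tnfaip3, Ifi209, Ddx60 and Ifi205), and 0 were at least 2-fold lower, against 2.00% and 0.828% of all tested genes. Apart from Il1rl1, which encodes the receptor of interleukin-33, these genes are downstream regulators, soluble pattern binders or sensors of other classes. The 10 genes were not part of the 167, and the 9 remaining Toll-like receptor genes were all under the filter. No Toll-like receptor could therefore be among the 8.

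In the pathway of the RIG-I-like receptors 27 genes were tested, 16 higher and 11 lower, with a median of 0.087. The gene with the largest difference was Irf7, which encodes a transcription factor that drives interferon genes after MAVS is engaged, at 11.6 FPKM (PRP) and 3.18 FPKM (control), a ratio of 3.65 (3.13 to 4.27). It was followed by Tank, which encodes a scaffold of the kinase TBK1, with 19.6 and 10.5 FPKM and a ratio of 1.87 (1.74 to 2.01). Among the inhibitors of TLR and RLR signalling 13 of 16 tested genes were higher and 3 lower, against 50.9% of all tested genes higher. Their median was 0.23. Here Tnfaip3, which encodes the ubiquitin-editing enzyme A20, had 5.88 FPKM (PRP) and 1.32 FPKM (control), a ratio of 4.45 (3.76 to 5.30). Il1rl1, listed there because its receptor ST2 can bind MyD88 and better known as the receptor of interleukin-33, had 7.61 and 1.87 FPKM, a ratio of 4.07 (3.52 to 4.73).

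The adaptors, kinases and ligases that act after the TLRs were split, with 8 of 18 tested genes higher and 10 lower and a median of -0.086. The gene with the largest difference was Ticam1, which encodes TRIF, the adaptor of TLR3 and the second adaptor of TLR4. It had 1.02 FPKM (122 reads) with PRP and 2.13 FPKM (218 reads) in the control, a ratio of 0.476 (0.342 to 0.657), although its log2 fold change of -0.64 stayed inside 2-fold. Myd88 was 2.74 times the Ticam1 level in the control library (2.19 to 3.47) and 6.98 times in the PRP library (5.31 to 9.31). Irak1bp1, which encodes a protein that binds the kinase IRAK1, had 5.06 and 3.04 FPKM, a ratio of 1.66 (1.32 to 2.11).

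Of the co-receptor and trafficking genes of the TLRs 9 were tested, 5 higher and 4 lower, with a median of 0.033. Lbp, which encodes the protein that loads lipopolysaccharide onto CD14, had 4.11 FPKM (PRP) and 7.31 FPKM (control), a ratio of 0.563 (0.495 to 0.640). Hsp90b1, which encodes the endoplasmic reticulum chaperone that folds TLRs, was among the most abundant genes listed, at 902.9 FPKM (PRP) and 1229.9 FPKM (control). The 9 remaining Toll-like receptor genes were all under the filter, the highest value being 0.485 FPKM for Tlr5 in the control library, and Tlr11 and Tlr12 were at 0 in both.

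Among the NOD-like receptors and inflammasome genes 9 of 15 tested genes were higher and 6 lower, with a median of 0.10. Casp4, which encodes the caspase that senses cytosolic lipopolysaccharide, had 8.06 FPKM (PRP) and 4.35 FPKM (control), a ratio of 1.85 (1.60 to 2.15). Nlrc5, which encodes an activator of MHC class I genes, had 5.55 and 3.10 FPKM, a ratio of 1.79 (1.60 to 2.00). Nlrp3, which encodes the sensor of the best known inflammasome, was under the filter and was chosen after its values were seen. It had 56 reads in the PRP library (0.344 FPKM) and 0 reads in the control. Taking 3 fragments as the limit for a count of 0 in that library, and the PRP count as exact, it was at least 7.94-fold higher. With the counting error of both libraries, the lower end of its interval was 6.04.

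Of 15 tested genes of cytosolic DNA sensing 10 were higher and 5 lower, with a median of 0.23, against 50.9% of all tested genes higher. Of the 14 with whole reads, the interval of the ratio lay above 1 for 7 and below 1 for 2. Over all tested genes with whole reads, these shares were 26.1% and 26.1%. The largest difference was that of Zbp1, which encodes a sensor of Z-form nucleic acids (16.2 and 3.39 FPKM, ratio 4.78, 4.12 to 5.58). Ifi209 (ratio 4.34) and Ifi205 (ratio 2.70) belong to a cluster of closely related genes that can share reads, so their split is uncertain. All 8 tested genes of the other double-stranded RNA sensors had a log2 fold change above 0, against 50.9% of all tested genes. The interval lay above 1 for 5 of the 8, against 26.1% of all tested genes with whole reads. The median of the 8 genes was 0.23. They were led by Ddx60, which encodes a helicase that aids RIG-I (3.14 and 0.705 FPKM, ratio 4.45, 3.61 to 5.54), followed by the RNA-editing gene Adar (12.1 and 8.58 FPKM, ratio 1.41, 1.31 to 1.52), of whose exon bases 16.8% overlap Chrnb2.

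Of the 26 lectin and other surface genes 21 were under the filter. Of the 5 tested, 2 were higher and 3 lower, with a median of -0.73. Ptx3, which encodes a soluble pattern recognition protein made by stromal cells, had 273.2 FPKM (PRP) and 83.5 FPKM (control), a ratio of 3.27 (3.16 to 3.39). Colec12, which encodes a scavenger receptor with a lectin domain, was lower, at 20.01 against 37.6 FPKM (ratio 0.532, 0.510 to 0.555).

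**Figure D4:**
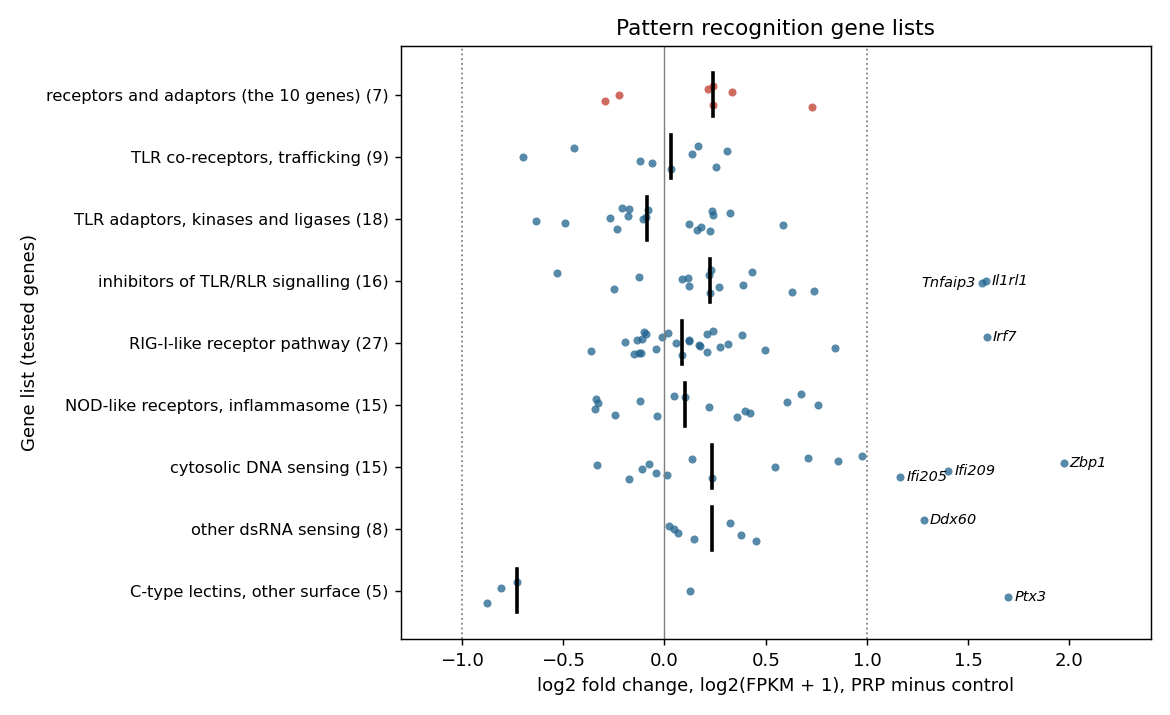
Log2 fold change, on the log2(FPKM + 1) scale, of each tested gene (points) in the list of receptors and adaptors (red) and in 8 further lists (blue), with the number of tested genes in parentheses and the median of each list as a black bar. Dotted lines mark 2-fold, and the genes beyond them are named. The red points lie between -0.29 and 0.73, and the 8 named genes are all in other lists.

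Several of the 10 genes are abundant in macrophages, so the markers of other cells were read beside them. Of 18 macrophage and monocyte markers 16 were under the filter, and the summed level of the list was 11.5 FPKM with PRP and 11.7 FPKM in the control. The defining markers Ptprc and Adgre1 were near 0, with 8 and 12 reads for Ptprc and 4 and 6 reads for Adgre1 in the PRP and control libraries. Others under the filter, chosen after their values were seen, went both ways. Csf1r had 138 and 90 reads (ratio 1.30, 0.883 to 1.94), Fcer1g had 14 and 0 reads, and Cx3cr1 had 52 and 56 reads. The 2 tested macrophage markers were Lyz2, with 4.91 FPKM (PRP) and 7.57 FPKM (control), and Cd68, with 4.56 and 2.31 FPKM.

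Of 8 neutrophil markers 3 were at 0 in both libraries (Ly6g, Cxcr2 and Csf3r), and the sum was 2.76 FPKM (PRP) and 1.32 FPKM (control). The tested neutrophil marker, S100a9, had 0.859 FPKM (18 reads, PRP) and 1.23 FPKM (22 reads, control), and S100a8, chosen after its values were seen, had 47 and 2 reads. The summed levels were 0.140 and 0.105 FPKM for lymphocyte markers, 10.1 and 6.05 FPKM for endothelial markers (mostly Tek and Kdr), 27.7 and 26.7 FPKM for myogenic markers (led by Acta1) and 3.82 and 4.84 FPKM for platelet markers (with 0.872 and 2.26 FPKM for Gp1bb). The 2 tested endothelial markers were higher in the PRP library. Kdr, past 2-fold, had a ratio of 2.82 (2.43 to 3.28), and Tek had 1.33 (1.14 to 1.55). Others, under the filter, were chosen after their values were seen. Of these, Pecam1 (47 and 10 reads), Vwf (93 and 46 reads) and Esam (18 and 2 reads) had intervals wholly above 1. Egfl7, Tie1 and Cdh5 were lower, with intervals that included 1. What part cells other than FAPs have in the low genes Nod2, Cd14 and Tlr2 was not tested.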

How the data were processed

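RNA-seq of 1 PRP and 1 control culture of FAPs was analysed. Per the submitters' notes and the study's methods, the authors trimmed reads (the notes list fastp 0.23.4), aligned them to mm10 with STAR 2.5.3a and counted them with featureCounts. They deposited FPKM for 44291 genes, and how counts became FPKM, the annotation release and the strand setting are not given in the sources used here. Exon lengths and coordinates are from GENCODE M21 (GRCm38), in which 41492 genes (93.7%) had an entry.

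Whole reads (within 0.001) could be recovered in each library for 26406 (93.8%) of the 28160 genes that were above 0 and had a length. Even numbers made up 79.3% (PRP) and 80.3% (control) of values up to 8 reads, so reads were divided by 2 for intervals. These treat PCR duplicates as independent. No test for raw counts was run, and no p-value is given.

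The log2 fold change used a pseudocount of 1 and a mean FPKM filter of 1. The 10 genes and the lists were chosen with earlier results of these data known. Named are all 10 genes and, of each pathway list, at most 4 genes that differed at least 2-fold or, with fewer than 2 such genes, the 2 tested genes with the largest difference. Of marker lists, the most abundant tested gene and defining markers near 0 are named. Other genes are said to be chosen after their values were seen, as were Pdgfra, Cd68, Kdr and S100a8. Alternatives were other pseudocounts, filters, scalings and thresholds, and reads not halved. The plain ratio and the scaling to the mean of both sums were added after seeing the data. The procedures were tested on simulated data. Python 3.11.15, NumPy 2.4.6, pandas 2.3.3, SciPy 1.17.1 and matplotlib 3.10.9 were used.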

Additional observations from a re-analysis of the deposited data

How the results depend on the processing

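With 1 library per group, no replicate could be left out. No paired analysis was possible because PRP and control have 1 library each. Only the scalings and the centring on the median tested gene could change the sign of a log2 fold change. They covered the 7 tested genes and changed no sign. Other pseudocounts, filters, thresholds and the plain ratio keep the sign by construction. For Tlr3, Cd14 and Nod2 no alternative could have changed it. The number of the 10 genes at least 2-fold higher, 0, became 1 at a 1.5-fold threshold (Dhx58) and 1 with plain FPKM ratios (Nod2), and none was lower at either. With the filter raised to 5 FPKM, 2 of the genes were left and their median was -0.028. The number of other pathway genes changed, 8, was 22 at 1.5-fold, 0 at 4-fold, 3 with the filter at 5 FPKM, 3 with the pseudocount at 5 and 23 with plain ratios. Over all tested genes, 379 at the settings used, it was 1436 at 1.5-fold, 26 at 4-fold, 210 with the filter at 5 FPKM, 739 and 113 with pseudocounts of 0.1 and 5, 596 with each library scaled to a sum of 1000000, 638 when mitochondrial genes and the top 50 were kept out of those sums, and 3960 with plain ratios. Scaling to 1000000 also makes the pseudocount smaller relative to the levels. With the sums set equal at their mean instead, an alternative chosen after seeing the data, the numbers were 376 and, without mitochondrial genes and the top 50, 378. Intervals on reads that were not halved left out 1 for 9 of the 10 genes instead of 7, and included it for Tlr3. Read numbers limit Nod2, Cd14 and Tlr2 most.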
